A study of Mus musculus with 8 samples.

Results

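The genes described here encode the proteins of the mitochondrial ribosome. They were taken as the protein-coding genes whose symbol starts with Mrpl or Mrps followed by a number, and 77 of the 22075 genes of the deposited table met this rule, 48 of them Mrpl and 29 Mrps. Another 4 genes with such symbols are pseudogenes and were left out. RNA was sequenced from ILC2s of the lung, group 2 innate lymphoid cells, which carry no antigen receptor and release type 2 cytokines when epithelial alarm signals such as IL-33 reach them. All mice were C57BL/6 with Stat3 fl/fl alleles and had been given papain, a protease allergen, and all cells were then kept in culture with IL-2 (10 ng/ml) for roughly 5 days. The 4 groups of 2 libraries were STAT3-KO cells with 10 ng/ml IL-33 for 2 days, WT cells with the same IL-33, STAT3-KO control cells and WT control cells. STAT3-KO cells carried Vav-iCre, a recombinase expressed throughout the blood lineage, and WT cells carried no Cre, so the loss of STAT3 and the presence of Cre cannot be told apart. The labels do not describe the medium of the control cells during the last 2 days. They also do not say whether replicates came from separate mice or cultures, so the p values below measure the spread between these libraries, which may be technical.

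Mitochondria carry their own ribosomes, which translate only the few mRNAs of the mitochondrial genome, all of which encode subunits of the respiratory chain and ATP synthase. Every protein of these ribosomes is encoded in the nucleus, made in the cytosol and imported, while their rRNAs are transcribed inside the organelle. The small subunit reads the mRNA and the large subunit joins the amino acids, and many of the proteins descend from bacterial ribosomal proteins while others were added later in evolution.

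Libraries held between 15843685 and 19905817 reads, and for 1 kb of exon a count of 3 reads equals 0.151 to 0.189 FPKM (fragments scaled to exon length and to library depth). Stat3 itself had 8.03 and 9.69 FPKM in STAT3-KO cells with IL-33, against 49 and 55.3 FPKM in WT cells with IL-33. Without IL-33 it had 15.3 and 16 FPKM in STAT3-KO cells and 41.7 and 50.7 FPKM in WT cells, so it was lower in every STAT3-KO library but not at 0. Of 11 ILC2 markers, 10 reached 1 FPKM in every library. Their summed level was 1714 to 1749 FPKM in STAT3-KO cells with IL-33, 4216 to 4484 in WT cells with IL-33, 3575 to 3597 in STAT3-KO control cells and 3683 to 3810 in WT control cells. Of 6 T cell markers, 5 were below 1 FPKM in every library. The summed level of Cpa3 and Mcpt8, the mast cell and basophil markers in the table, was 7.49 to 7.77 FPKM in STAT3-KO cells with IL-33, 127 to 155 in WT cells with IL-33, 111 to 140 in STAT3-KO control cells and 299 to 326 in WT control cells. That of the B cell markers Cd79a and Cd79b was 19.6 to 21.9 FPKM in STAT3-KO cells with IL-33 and 13.1 to 13.9 in WT cells with IL-33, against 3.26 to 4.13 in STAT3-KO control cells and 7.92 to 8.15 in WT control cells. The epithelial markers in the table summed to 0.441 to 0.492 FPKM in STAT3-KO cells with IL-33, 4.13 to 4.70 in WT cells with IL-33, 5.47 to 8.28 in STAT3-KO control cells and 5.27 to 10.1 in WT control cells. Those of macrophages and monocytes summed to 3.12 to 6.35 FPKM in STAT3-KO cells with IL-33, 5.67 to 6.55 in WT cells with IL-33, 0.595 to 2.66 in STAT3-KO control cells and 0.312 to 1.21 in WT control cells. For red blood cells the table held 1 of 2 markers, with 2.84 to 4.15 FPKM in STAT3-KO cells with IL-33, 3.46 to 4.84 in WT cells with IL-33, 10.1 to 12.1 in STAT3-KO control cells and 18.9 in both WT control libraries. The marker levels thus moved with the groups, and their part in the results was not tested. In such bulk samples a change in the mix of cells and a change in RNA per cell cannot be told apart.

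The mitochondrial ribosomal protein genes were expressed at moderate levels, with a median of 13.9 FPKM for their means over the 8 libraries, and 46 of the 77 averaged at least 10 FPKM. The highest was Mrpl10, which forms the base of the stalk of the large subunit that recruits translation factors, with 108 and 121 FPKM in STAT3-KO cells with IL-33, 85.0 and 90.1 in WT cells with IL-33, 81.5 and 91.8 in STAT3-KO control cells and 112 and 88.8 in WT control cells. Next came Mrpl36 and Mrpl43, both of the large subunit. Mrpl36 ranged over 74.0 to 110 FPKM in STAT3-KO cells with IL-33, 78.4 to 84.4 in WT cells with IL-33, 70.7 to 81.3 in STAT3-KO control cells and 83.4 to 83.6 in WT control cells. Its groups overlapped, except that both STAT3-KO control libraries lay below both WT control libraries. Mrpl12, the protein that sits on Mrpl10 in the stalk, was far lower, with 5.56 and 4.55 FPKM in STAT3-KO cells with IL-33, 4.20 and 4.85 in WT cells with IL-33, 3.69 and 2.93 in STAT3-KO control cells and 2.8 and 3.79 in WT control cells. The lowest were the small-subunit genes Mrps34, Mrps22 and Mrps25. Mrps34 stood at or below 0.202 FPKM in every library, between 3 and 7 reads, and it alone of the 77 was not tested; its exons overlap those of other genes, as do those of 32 members in all, 7 on the same strand and 27 on the opposite one. Mrps22 reached 1.23 and 1.47 FPKM in STAT3-KO cells with IL-33, 1.11 and 0.754 in WT cells with IL-33, 0.670 and 0.750 in STAT3-KO control cells and 0.806 and 0.601 in WT control cells.

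Added over all 77 genes, the level was 2276 and 1780 FPKM in STAT3-KO cells with IL-33, against 1468 and 1354 FPKM in STAT3-KO control cells. In WT it was 1535 and 1548 FPKM with IL-33 and 1490 and 1401 FPKM in control. As a share of all FPKM this was 0.614% and 0.510% in STAT3-KO cells with IL-33, 0.456% and 0.463% in WT cells with IL-33, 0.449% and 0.419% in STAT3-KO control cells and 0.450% and 0.436% in WT control cells. Both STAT3-KO libraries with IL-33 thus lay above the other 6 libraries. They also lay apart from each other, since the first exceeded the second in 62 of the 76 tested members and fell below it in 14, with a median difference of 0.30 on the log2 scale. Over all tested genes the same 2 libraries differed by a median of -0.01. In STAT3-KO control the first library was also above the second for the members, by a median of 0.13 (53 members above and 23 below). The median was 0.0007 in WT with IL-33 and 0.03 in WT control.

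**Figure D1:**
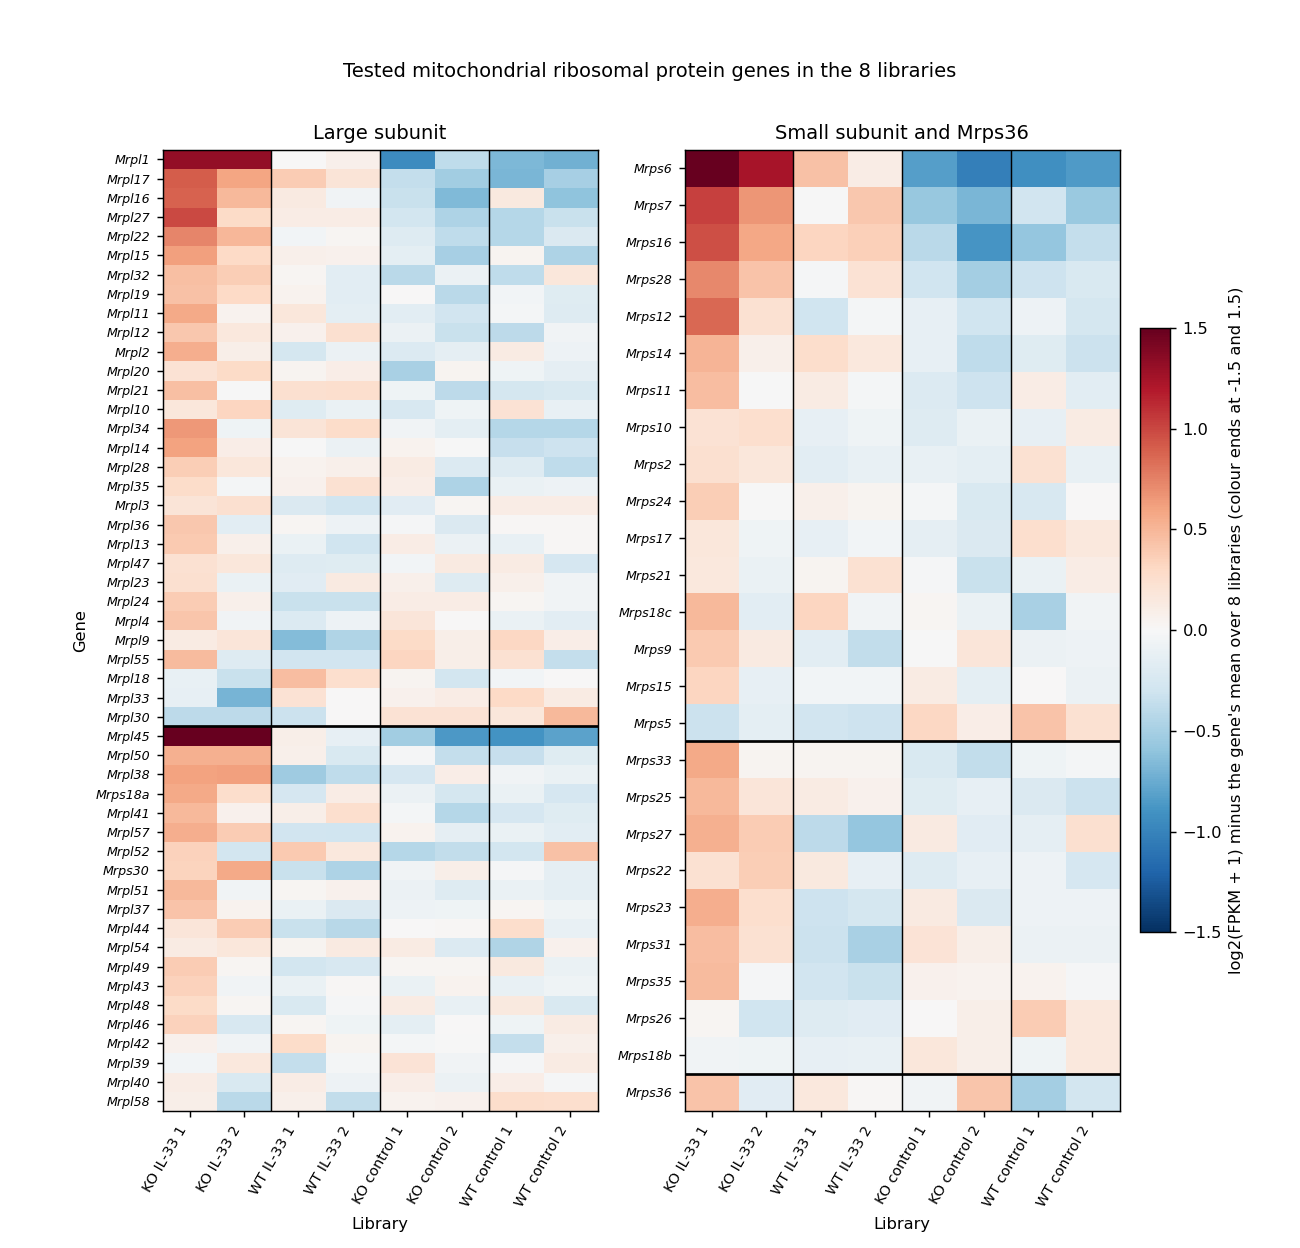
Tested mitochondrial ribosomal protein genes (rows) in the 8 libraries (columns), large subunit on the left, small subunit and Mrps36 on the right, each block split into genes with and without a bacterial counterpart. Colour is log2(FPKM + 1) minus the gene's mean over the libraries; the first STAT3-KO library with IL-33 is the reddest column, above the second in 62 of 76 genes, and Mrps6, Mrpl45 and Mrpl1 stand out in both.

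Promoters were described from RefSeq sequences (GRCm38.p6) running from 250 bases before to 50 bases after the start of a gene, which were found for 68 of the 77 genes. The letters TGCGCA, the core of the site of NRF1, a nuclear regulator of mitochondrial genes, occurred on either strand in 21 of the 68, or 30.9%, against 7.76% of all 32851 promoters and 16.1% of those of the 7867 tested protein-coding genes found there. CCGGAAG, bound by ETS factors such as GABPA, occurred in 23 member promoters, or 33.8%, against 8.86% of all promoters and 21.1% of those of tested genes. AAGATGG, bound by YY1, occurred in 13 member promoters, or 19.1%, against 6.34% and 8.15%, and CACGTG, the E-box bound by MYC and MAX, in 5, or 7.35%, against 7.15% and 10.7%. None of the 4 words contains another. Such matches describe the sequence and do not show that a factor binds. With IL-33 in STAT3-KO, 21 of the matched members were called higher, as set out below. TGCGCA was present in 11 of these 21 and in 10 of the other 47. CCGGAAG was present in 7 of the 21 and 16 of the 47, AAGATGG in 5 and 8, and CACGTG in 1 and 4. These differences were not tested, and no such split is given here for all tested genes. The 250 bases before the start are shown for Mrpl45 and Mrps16, higher with IL-33 in both genotypes, and for Mrpl34, called higher in WT, because these windows hold no annotated exon. Capitals mark TGCGCA in the first 2 and CCGGAAG in the last; the windows are chr11:97315466-97315715 on the plus strand, chr14:20393635-20393884 on the minus strand and chr8:71464676-71464925 on the plus strand.
Mrpl45: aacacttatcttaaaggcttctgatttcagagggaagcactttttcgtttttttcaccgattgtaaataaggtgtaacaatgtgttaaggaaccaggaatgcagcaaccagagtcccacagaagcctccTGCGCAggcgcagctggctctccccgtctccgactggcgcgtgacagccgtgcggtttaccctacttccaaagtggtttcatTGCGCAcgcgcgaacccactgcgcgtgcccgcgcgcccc
Mrps16: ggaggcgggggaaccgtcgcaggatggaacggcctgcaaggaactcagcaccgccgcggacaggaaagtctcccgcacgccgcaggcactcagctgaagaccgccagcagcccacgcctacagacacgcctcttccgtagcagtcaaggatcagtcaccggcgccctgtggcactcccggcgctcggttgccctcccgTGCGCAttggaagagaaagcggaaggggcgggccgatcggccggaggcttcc
Mrpl34: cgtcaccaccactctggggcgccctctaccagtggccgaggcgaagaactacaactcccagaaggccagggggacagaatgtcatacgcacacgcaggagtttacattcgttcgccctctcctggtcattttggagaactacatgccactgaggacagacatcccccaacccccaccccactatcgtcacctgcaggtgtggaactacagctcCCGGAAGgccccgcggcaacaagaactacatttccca
Mrpl45 holds TGCGCA at 2 places and Mrps16 at 1.

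The first comparison asked how these genes differed with IL-33 in STAT3-KO cells. Of the 76 tested members, 25 were called higher and 2 lower in STAT3-KO cells with IL-33 than in STAT3-KO control cells, and the median difference was 0.33 in log2(FPKM + 1). Called means an adjusted p below 0.05 in limma, with Benjamini-Hochberg adjustment over the 11877 genes tested. Among all tested genes 20.4% were called higher and 30.6% lower, with a median of -0.18, so 32.9% of the members were called higher where the background was 20.4%. By class, calls of a rise were made for 11 of 30 large-subunit proteins with a bacterial counterpart, 6 of 20 without one, 7 of 16 small-subunit proteins with a counterpart and 1 of 9 without one. The medians of these classes were 0.36, 0.29, 0.36 and 0.43. The count was 12 without the first STAT3-KO library with IL-33, 32 without the second and 12 without the second STAT3-KO control library. The median of the members was 0.21 without the first STAT3-KO library with IL-33 and 0.45 without the second.

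Mrps6, a small-subunit protein with a bacterial counterpart, changed most. It had 105 and 68.8 FPKM in STAT3-KO cells with IL-33, against 15.8 and 13.6 FPKM in STAT3-KO control cells, a log2 difference of 2.46 ± 0.20 (SE, n = 2 per group, limma adjusted p = 3.75e-05). Both libraries with IL-33 were several times above both controls. Its exons at chr16:92058270-92112227 overlap Slc5a3 on the same strand, and that gene stood between 0.0819 and 0.654 FPKM in every library. Mrpl45 (chr11:97315716-97329920), which anchors the large subunit to the inner membrane where the new chain emerges, had 23.5 and 25.3 FPKM in STAT3-KO cells with IL-33 and 4.99 and 3.75 FPKM in STAT3-KO control cells. This was a rise of 2.25 ± 0.17 (adjusted p = 2.46e-05), with no overlap of the groups. Mrpl1 (chr5:96209493-96266727), of the mobile stalk through which used tRNAs leave, had 40.3 FPKM in each STAT3-KO library with IL-33, against 7.56 and 11.7 FPKM in STAT3-KO control cells. The 2 libraries with IL-33 were nearly identical and the difference was 1.99 ± 0.18 (adjusted p = 6.36e-05).

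Proteins of the small subunit followed. Mrps7, which helps to build the head of the small subunit in bacteria, had 85.6 and 66.5 FPKM in STAT3-KO cells with IL-33 and 27.7 and 25.6 FPKM in STAT3-KO control cells, a difference of 1.47 ± 0.18 (adjusted p = 0.000286). Mrps16 had 32.9 and 24.9 FPKM in STAT3-KO cells with IL-33, against 12.1 and 8.37 FPKM in STAT3-KO control cells, a difference of 1.42 ± 0.20 (adjusted p = 0.000572). In both genes the groups were apart. Mrps28 reached 47.9 and 38.8 FPKM in STAT3-KO cells with IL-33, against 23 and 19.8 FPKM in STAT3-KO control cells, a rise of 0.98 ± 0.15 (adjusted p = 0.00091). Mrps12, which lines the decoding centre, had 92.5 and 59.5 FPKM in STAT3-KO cells with IL-33 and 46.5 and 40.9 FPKM in STAT3-KO control cells, and its rise of 0.75 (adjusted p = 0.0139) was lost without either the first STAT3-KO library with IL-33 or the second STAT3-KO control library.

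In the large subunit, Mrpl17 had 10.9 and 8.53 FPKM in STAT3-KO cells with IL-33, against 3.96 and 3.42 FPKM in STAT3-KO control cells, a difference of 1.19 ± 0.18 (adjusted p = 0.00105). Mrpl16, whose bacterial counterpart lies near the peptidyl transferase centre, had 87.1 and 65.6 FPKM in STAT3-KO cells with IL-33 and 36.7 and 29.2 FPKM in STAT3-KO control cells, a difference of 1.18 ± 0.24 (adjusted p = 0.0042). Mrpl27, whose bacterial counterpart reaches into the same centre, had 101 and 61.9 FPKM with IL-33 and 41.4 and 36.4 FPKM in control, and Mrpl22, which lines the exit tunnel, had 8.19 and 6.77 FPKM with IL-33 and 3.82 and 3.24 FPKM in control. All 4 were higher in both libraries with IL-33. The stalk protein Mrpl10 rose by 0.40 ± 0.13 (adjusted p = 0.0336), a call lost under 8 of 15 alternative settings, while Mrpl12 differed by 0.49 ± 0.20 and did not pass (adjusted p = 0.0696). The 10 largest rises, from Mrps6 down to Mrpl22, kept their calls under all 15.

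Of the 3 Mrps18 paralogs, 1 was called. Mrps18a, a protein of the large subunit despite its symbol, had 37.6 and 30.4 FPKM in STAT3-KO cells with IL-33 and 23.6 and 20.8 FPKM in STAT3-KO control cells, and rose by 0.59 ± 0.16 (adjusted p = 0.0169). That call was lost without the second STAT3-KO control library or the first STAT3-KO library with IL-33. Mrps18b had 1.23 and 1.21 FPKM with IL-33 and 1.62 and 1.46 FPKM in control, and Mrps18c 9.52 and 5.70 FPKM with IL-33 and 6.69 and 6.02 FPKM in control. Neither of these passed the test. Mrps36, today known as a subunit of the oxoglutarate dehydrogenase complex and not of the ribosome, had 3.51 and 1.99 FPKM with IL-33 and 2.24 and 3.47 FPKM in control, which overlap.

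The 2 members that fell in STAT3-KO were Mrpl30 and Mrps5. Mrpl30 had 1.86 and 1.87 FPKM in STAT3-KO cells with IL-33 and 3.37 and 3.34 FPKM in STAT3-KO control cells, a difference of -0.61 ± 0.20 (adjusted p = 0.0349). Mrps5, a protein of the mRNA entry region, had 15 and 17.2 FPKM with IL-33 and 23.8 and 20.6 FPKM in control, a difference of -0.44 ± 0.14 (adjusted p = 0.0271). Both calls were lost when the values were rescaled by the median of ratios. That for Mrpl30 was also lost without a filter and without any 1 of the 4 STAT3-KO libraries. That for Mrps5 was also lost with the length trend removed, with only the groups compared and without the first library of either STAT3-KO group. That rescaling moved the median of all tested genes by over 0.1, to -0.01 in STAT3-KO and 0.00 in WT, against -0.18 and -0.14 as deposited, and it gave member medians of 0.54 in STAT3-KO and 0.20 in WT.

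**Figure D2:**
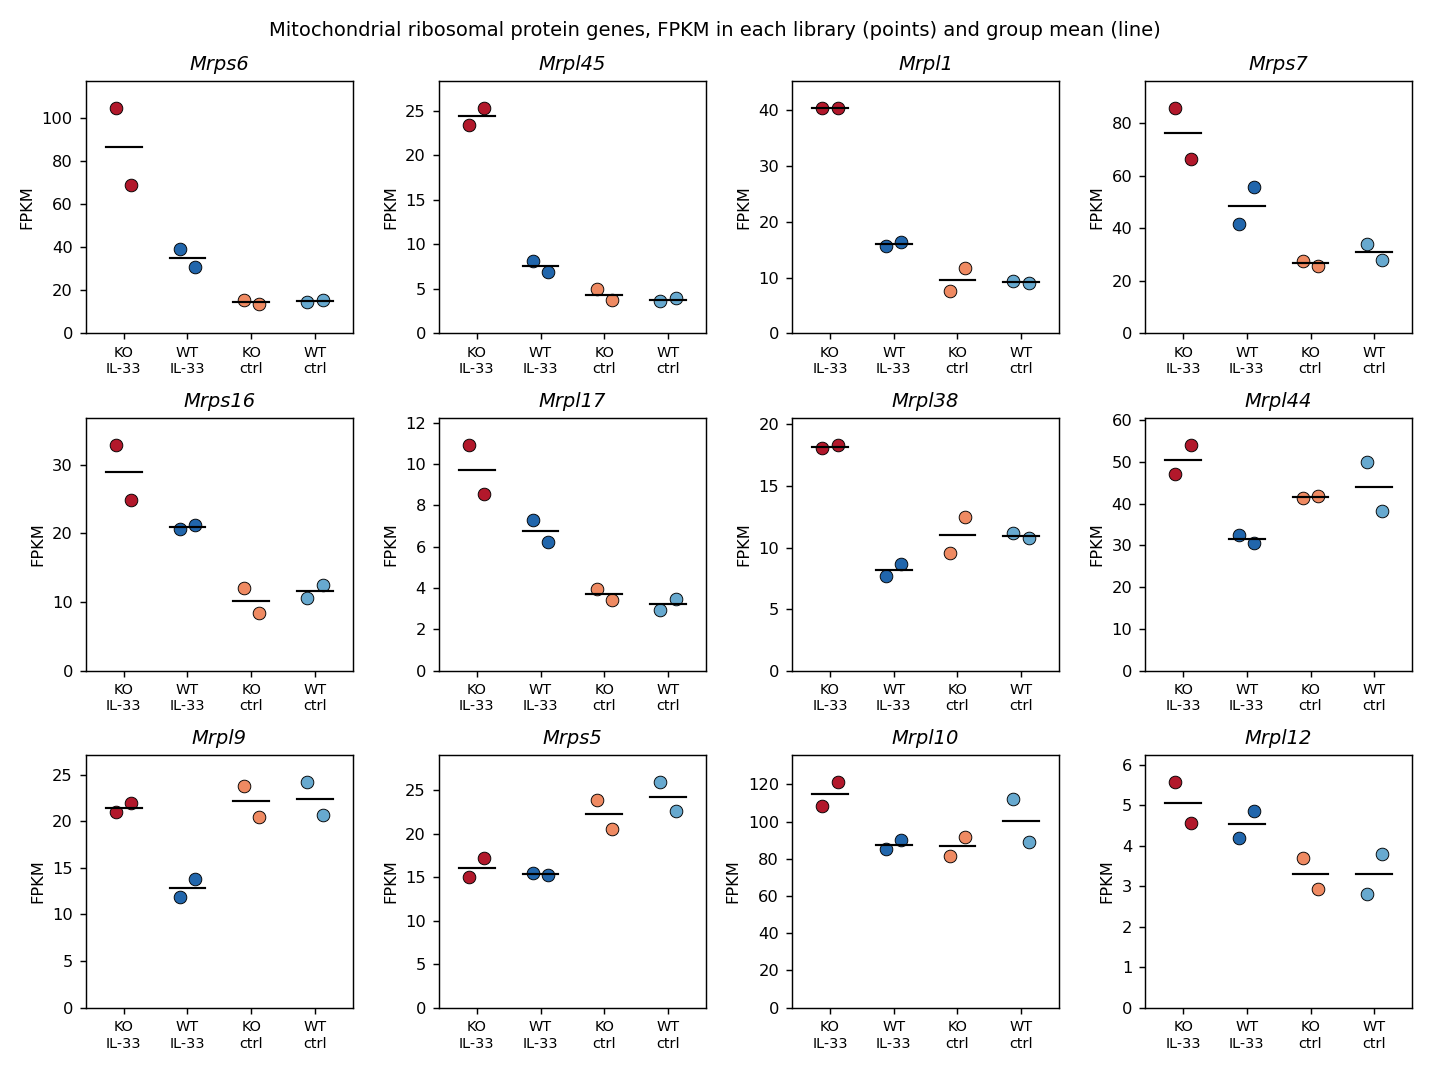
FPKM (vertical axis) of 12 mitochondrial ribosomal protein genes in each library; points are libraries, lines are means of the 2 libraries of a group, and groups run from STAT3-KO with IL-33 to WT control. Mrps6, Mrpl45 and Mrpl1 are highest in STAT3-KO with IL-33 and intermediate in WT with IL-33, Mrpl9 and Mrpl44 are lowest in WT with IL-33, and Mrps5 is lower with IL-33 in both genotypes.

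In WT cells with IL-33, 7 members were called higher and 3 lower than in WT control cells. Among all tested genes 14.5% were called higher and 21.6% lower, so the members called, 9.21% higher and 3.95% lower, were below the background in both directions. The median difference of the members was 0.04, against -0.14 for all tested genes. After the rescaling by the median of ratios 14 were called higher and 2 lower, or 18.4% and 2.63%, against 19.4% and 15.7% of all tested genes after the same rescaling. The 7 calls came down to 2 without the first WT library with IL-33, 3 without the second and 4 without the second WT control library. The 3 falls were 1 without the second WT library with IL-33 and 5 without either STAT3-KO library with IL-33, which enter through the shared spread.

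The largest rise in WT was again that of Mrps6, with 39.2 and 30.9 FPKM in WT cells with IL-33 and 14.7 and 15.5 FPKM in WT control cells, a difference of 1.16 ± 0.20 (adjusted p = 0.00307). Mrpl17 had 7.29 and 6.24 FPKM with IL-33 and 2.93 and 3.49 FPKM in control (0.88 ± 0.18, adjusted p = 0.00684), and Mrpl45 had 8.15 and 6.93 FPKM with IL-33 and 3.65 and 3.96 FPKM in control (0.83 ± 0.17, adjusted p = 0.00646). In each of these the groups were apart. Mrps16 rose by 0.81, Mrpl1 by 0.74 and Mrps7 by 0.63. The calls for Mrps16, Mrpl1 and Mrps7 were each lost under 3 of 15 alternatives. Those for Mrpl17 and Mrpl45 were each lost under 1, and that for Mrps6 under none. Mrpl34, a small basic protein of the large subunit, had 59.1 and 62.8 FPKM in WT cells with IL-33 and 38.2 FPKM in both WT control libraries, a difference of 0.66 ± 0.20 (adjusted p = 0.0325) whose call was lost under 7 of 15 alternatives. It was the only one of the 7 not also called higher in STAT3-KO, where it had 81.3 and 49.1 FPKM with IL-33 and 49.9 and 46.3 FPKM in control (0.39 ± 0.20, adjusted p = 0.135). The 6 shared genes were thus 6 of the 25 called higher in STAT3-KO and 6 of the 7 called higher in WT, between contrasts that share no library. These are 24% and 85.7%, and over all tested genes the shares were 45.2% of the genes called higher in STAT3-KO and 63.6% of those called higher in WT.

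The fall in WT was largest for Mrpl9, with 11.9 and 13.8 FPKM in WT cells with IL-33 and 24.2 and 20.6 FPKM in WT control cells, a difference of -0.75 ± 0.14 (adjusted p = 0.00442). Mrps5 had 15.4 and 15.2 FPKM with IL-33 and 25.9 and 22.6 FPKM in control, a difference of -0.63 ± 0.14 (adjusted p = 0.00885), and was the 1 member called lower in both genotypes. Mrpl44, which lies by the exit of the tunnel and has a ribonuclease-like fold, had 32.5 and 30.6 FPKM with IL-33 and 49.9 and 38.2 FPKM in control, a difference of -0.46 ± 0.14 (adjusted p = 0.0361). The call for Mrpl44 was lost under 8 of 15 alternative settings, that for Mrps5 under 2 and that for Mrpl9 under none. The stalk proteins Mrpl10 (-0.19) and Mrpl12 (0.37), Mrps12 (0.01), the Mrps18 paralogs and Mrps36 (0.48) did not pass in WT.

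The genotypes were compared with and without IL-33. Without it, 0 of 76 members were called higher or lower in STAT3-KO control cells than in WT control cells, with a median difference of -0.01, and limma called only 0.253% of all tested genes higher and 0.21% lower. At an unadjusted p below 0.05 there was 1 member, or 1.32% against 9.31% of all tested genes. This was Mrps17, with 5.62 and 5.29 FPKM in STAT3-KO control cells and 7.68 and 7.14 FPKM in WT control cells (log2 difference -0.38, adjusted p = 0.507).

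With IL-33, 21 members were called higher and 1 lower in STAT3-KO cells than in WT cells, against a background of 16.3% higher and 16.4% lower, with a median difference of 0.32 for the members and 0.01 for all tested genes. Rises were called for 6 of 30 large-subunit proteins with a bacterial counterpart and 7 of 20 without one, and for 5 of 16 and 3 of 9 in the small subunit. The share of members called higher was 27.6%. The count was 10 without the first WT library with IL-33, 7 without the second and 10 without the first STAT3-KO library with IL-33, and without this last library the median of the members was 0.20. This comparison shares its libraries with the 2 IL-33 responses above.

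Mrpl45, Mrpl1 and Mrps6 differed most, by 1.57 ± 0.17 (adjusted p = 0.000328), 1.28 ± 0.18 (adjusted p = 0.00123) and 1.26 ± 0.20 (adjusted p = 0.00221). Mrpl38, a protein of the central protuberance that has no bacterial counterpart, had 18.1 and 18.3 FPKM in STAT3-KO cells with IL-33 and 7.68 and 8.67 FPKM in WT cells with IL-33, a difference of 1.07 ± 0.16 (adjusted p = 0.00141). Mrps27, a pentatricopeptide repeat protein, had 10.9 and 9.71 FPKM in STAT3-KO cells with IL-33 and 5.26 and 4.49 FPKM in WT cells with IL-33, a difference of 0.94 ± 0.19 (adjusted p = 0.00641). Others with no bacterial counterpart were Mrps30, with 4.16 and 5.06 FPKM in STAT3-KO and 2.25 and 1.95 FPKM in WT, Mrpl57, with 9.30 and 8.22 FPKM in STAT3-KO and 4.78 and 4.74 FPKM in WT, and Mrps31, with 11.3 and 9.44 FPKM in STAT3-KO and 6.11 and 5.34 FPKM in WT. All were higher in both STAT3-KO libraries than in both WT libraries with IL-33. The call was lost under 2 of 14 alternatives for Mrps30 and under 1 of 15 for Mrps27 and for Mrps31. Mrpl9, which has a bacterial counterpart, was also called higher, a call lost under 1 of 15. Mrpl18, another protein of the central protuberance, went the other way, with 31.9 and 27.2 FPKM in STAT3-KO cells with IL-33 and 48.0 and 41.4 FPKM in WT cells with IL-33, a difference of -0.58 ± 0.15 (adjusted p = 0.0166). That call was lost without the first WT library or the second STAT3-KO library with IL-33. Mrps12 differed by 0.70 (adjusted p = 0.0275), a call lost under 4 of 15 alternatives, while Mrpl10, Mrpl12, the Mrps18 paralogs and Mrps36 did not pass.

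The difference between the IL-33 responses, STAT3-KO minus WT, was tested directly. It was called above 0 for 8 members and below 0 for none, with a median of 0.34, where 6.72% of all tested genes were called above 0 and 8.43% below; the members called make 10.5% of those tested. The count was 2 without either WT library with IL-33, 3 without either STAT3-KO control library or the first STAT3-KO library with IL-33, and 4 without the first WT control library. In Mrpl45 (1.42 ± 0.24, adjusted p = 0.00764), Mrps6 (1.30 ± 0.29, adjusted p = 0.0198) and Mrpl1 (1.25 ± 0.26, adjusted p = 0.0149) the response was a rise in both genotypes and larger in STAT3-KO. In Mrpl38 (1.07 ± 0.22, adjusted p = 0.0152) a called rise of 0.69 in STAT3-KO stood beside a difference of -0.38 in WT that did not pass. Mrpl9 and Mrpl44 were called lower with IL-33 in WT only, with 21 and 21.9 FPKM of Mrpl9 in STAT3-KO cells with IL-33 and 23.8 and 20.5 FPKM in STAT3-KO control cells. For Mrps27 (1.02 ± 0.27, adjusted p = 0.0381) and Mrpl3 (0.65 ± 0.18, adjusted p = 0.0467) neither response passed by itself. The call for Mrpl45 held under all 14 alternatives that give this difference, that for Mrpl38 was lost under 2, Mrpl1 under 3, Mrps6 under 4, and the other four under 9 to 11.

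**Figure D3:**
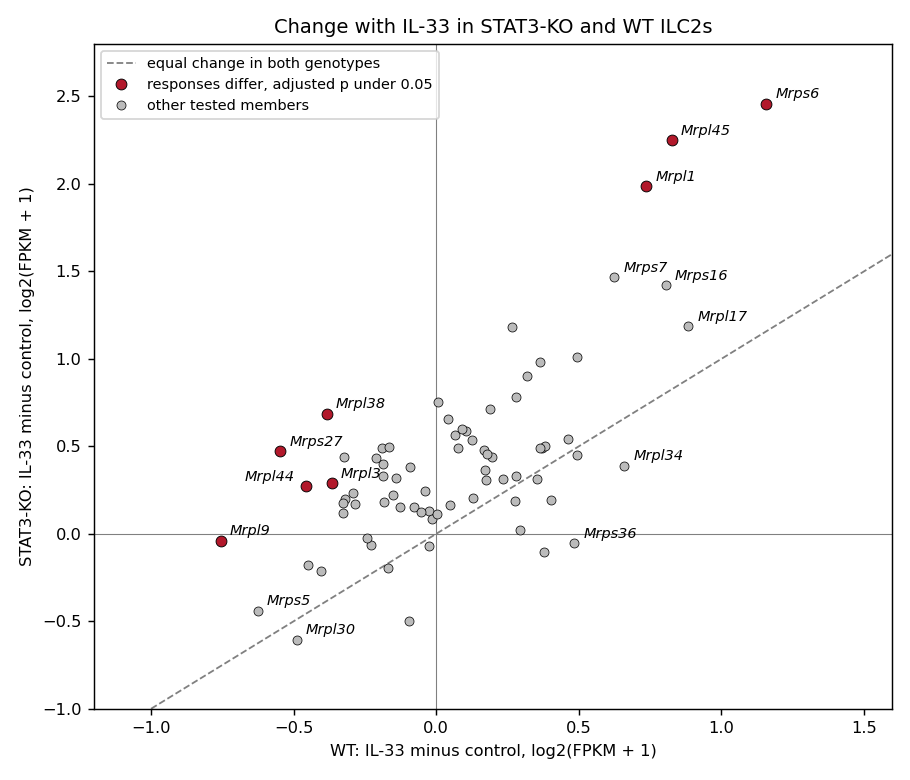
Each point is 1 of the 76 tested members, placed by its difference with IL-33 in WT (horizontal axis) and in STAT3-KO (vertical axis), both in log2(FPKM + 1); red points are the 8 members whose responses differ at an adjusted p below 0.05 and the dashed line marks equal responses. The red points lie above the line, with Mrps6, Mrpl45 and Mrpl1 at the upper right and Mrpl9 at the left, at -0.75 in WT and -0.04 in STAT3-KO.

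The ribosomal proteins of the cytosol gave a point of comparison. Of 84 such genes 80 were tested, and with IL-33 in STAT3-KO 61 were called higher and 0 lower, with a median of 0.86, against 25 and 2 of 76 and a median of 0.33 for the mitochondrial ones. The 61 are 76.25%, where 20.4% of all tested genes were called higher. At an unadjusted p below 0.05 the cytosolic count was 62 in either direction, or 77.5%, and the mitochondrial 34, or 44.7%, where 57.8% of all tested genes passed. In WT 10 cytosolic genes were called higher and 5 lower with IL-33, with a median of 0.20. These are 12.5% and 6.25%, below the 14.5% and 21.6% of all tested genes. Between STAT3-KO and WT cells with IL-33, 48 cytosolic genes, or 60%, were called higher and 0 lower, with a median of 0.65. The background was 16.3% higher and 16.4% lower. Without IL-33, 0 of the cytosolic genes were called. Their share of all FPKM was 8.51% and 7.04% in STAT3-KO cells with IL-33 and between 4.13% and 4.97% in the other libraries. The 61 calls were 39 without the second STAT3-KO control library. The 48 were 31 without the first and 16 without the second WT library with IL-33, and 18 without the first STAT3-KO library with IL-33. Under the alternatives, leaving out a library included, the 10 and 5 calls in WT ranged over 4 to 19 higher and 0 to 6 lower. As with the mitochondrial genes, the first STAT3-KO library with IL-33 lay above the second, by a median of 0.46. For the cytosolic genes the first library was also above the second in WT with IL-33 (0.25) and in STAT3-KO control (0.28). In WT control it was below (-0.14). Whether the 2 families differ was not tested.

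**Figure D4:**
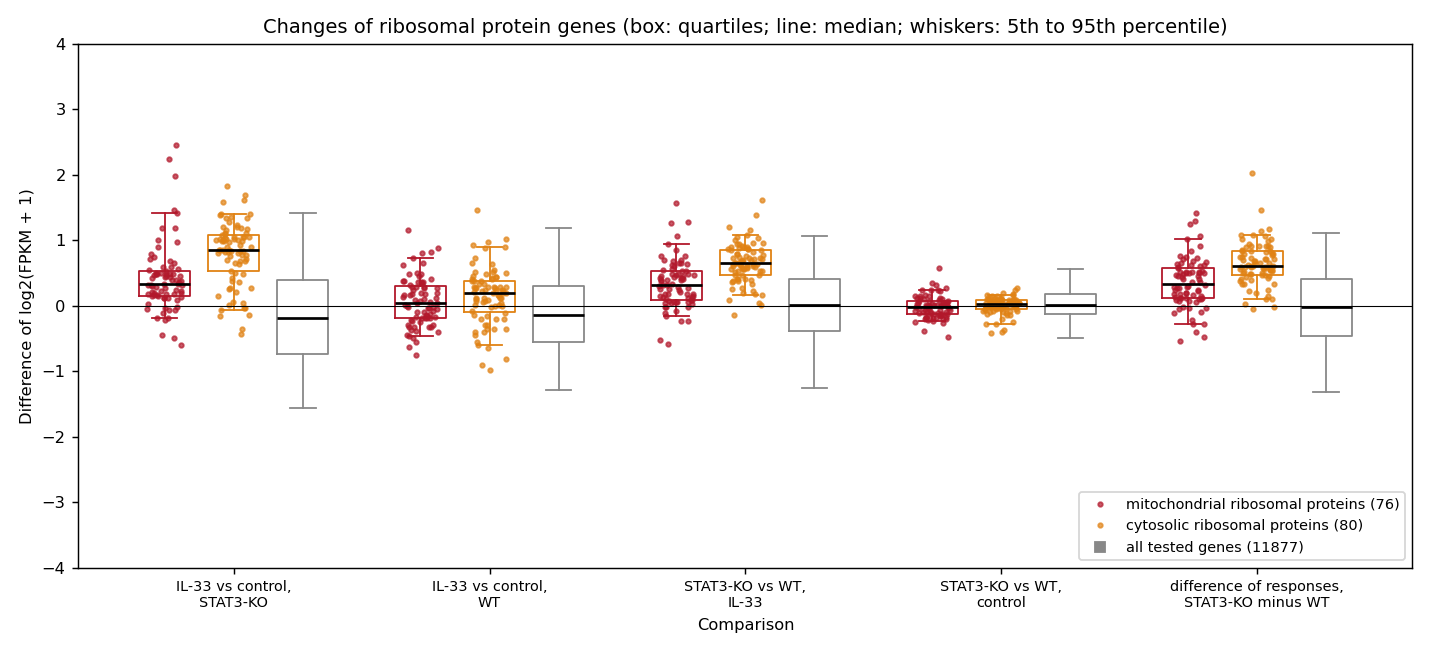
Differences in log2(FPKM + 1) for the 76 mitochondrial and 80 cytosolic ribosomal protein genes tested (points, with boxes for the quartiles and whiskers to the 5th and 95th percentiles) and for all 11877 tested genes (grey box) in the 5 comparisons. With IL-33 in STAT3-KO the medians are 0.33, 0.86 and -0.18 in that order, and all 3 groups centre near 0 for STAT3-KO against WT in control.

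Other genes of mitochondrial translation were counted by list. Among all tested genes, 20.4% were called higher and 30.6% lower with IL-33 in STAT3-KO, and 14.5% and 21.6% in WT. For STAT3-KO against WT with IL-33 the shares were 16.3% and 16.4%, and for the difference of responses 6.72% and 8.43%. Of 5 ribosome proteins without an Mrp symbol, 3 were called higher with IL-33 in STAT3-KO and 1 in WT, none lower. These were Dap3, a GTP-binding small-subunit protein (0.59), Ptcd3 (0.70) and Chchd1 (0.83) in STAT3-KO, and Chchd1 (0.77) in WT. All 3 lost the call in STAT3-KO without the second STAT3-KO control library. Dap3 had 26.4 and 28.9 FPKM in STAT3-KO cells with IL-33 and 19 and 17 FPKM in STAT3-KO control cells. Of 24 assembly factors, 4 were called higher and 3 lower with IL-33 in STAT3-KO, and 0 higher and 11 lower in WT. These are 16.7% and 12.5% in STAT3-KO, and 0% and 45.8% in WT. With IL-33, 10 of the 24, or 41.7%, were higher in STAT3-KO than in WT. The difference between the responses was called for 4 of the 24, or 16.7%. Tfb1m, which methylates the small rRNA, had 9.89 and 8.23 FPKM in STAT3-KO cells with IL-33, 3.29 and 2.45 in WT cells with IL-33, 5.96 and 4.23 in STAT3-KO control cells and 5.52 and 4.61 in WT control cells, a difference of responses of 1.39 ± 0.30 (adjusted p = 0.0181). It was highest in STAT3-KO with IL-33 and lowest in WT with IL-33. The other 3 were Trub2, a pseudouridine synthase (1.05), Ddx28, a DEAD-box helicase of large-subunit assembly (1.02), and Ngrn (0.86). Only the call for Ddx28 held under all 14 alternatives, while Tfb1m and Trub2 each lost it under 5 and Ngrn under 9. The 4 assembly factors called higher in STAT3-KO were 9 after rescaling, and 0 without the first STAT3-KO library with IL-33 or the second STAT3-KO control library. The 11 called lower in WT were 7 without the second WT library with IL-33, and the 10 called between genotypes were 4 without that library and 6 without any other library with IL-33.

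Of 13 tested translation factors, 3 were called higher and 1 lower with IL-33 in STAT3-KO, and 1 higher and 1 lower in WT. These are 23.1% and 7.69% in STAT3-KO, against 20.4% and 30.6% of all tested genes. In WT they are 7.69% each, against 14.5% and 21.6%. Tufm, the elongation factor that brings tRNAs to the ribosome, had 46.9 and 47.4 FPKM in STAT3-KO cells with IL-33, 20.5 and 22.7 in WT cells with IL-33, 24.2 and 22.3 in STAT3-KO control cells and 24 and 25.7 in WT control cells. Only the STAT3-KO libraries with IL-33 stood apart, and the difference of responses was 1.19 ± 0.16 (adjusted p = 0.00334). Mrrf, which recycles ribosomes after termination, had a difference of 0.98 ± 0.27 (adjusted p = 0.0423), which was lost under 10 of 14 alternatives, against none for Tufm. Of 20 tRNA synthetases and related enzymes of the organelle, 1 was called higher and 1 lower in STAT3-KO with IL-33, and 0 higher and 8 lower in WT. In the direct comparison with IL-33, 8 of the 20 were called higher and 1 lower in STAT3-KO than in WT. In limma 0 of the 20 had a called difference of responses. At an unadjusted p below 0.05 there were 9 of the 20, where 32.01% of all tested genes passed. The 1 called higher in STAT3-KO became 5 after rescaling and 7 with the length trend removed, and ranged over 0 to 2 under the others. The 1 called lower ranged over 0 to 2 under all 15. The 0 calls of a difference of responses became 3 with the length trend removed, 2 without the second WT control library, and 1 after rescaling, with a filter of 5 FPKM, or without the second WT or the first STAT3-KO library with IL-33. The 8 lower in WT were 5 after rescaling or without the first WT control library and 4 without either WT library with IL-33. The 8 higher in STAT3-KO were 5 with only the groups compared or without either STAT3-KO control library, 3 without a filter, without either WT library or the first STAT3-KO library with IL-33, and 1 without the second. Of 10 genes of mitochondrial transcription and DNA maintenance, 1 was called higher and 3 lower in STAT3-KO, and 0 higher and 3 lower in WT, among them Polrmt, the RNA polymerase (-0.94 in WT). The shares were 10% and 30% in STAT3-KO, where the background of falls was 30.6%, and 0% and 30% in WT, where it was 21.6%.

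The mRNAs that these ribosomes translate were described in the same way. Of 10 tested mRNAs of the mitochondrial genome, 3 were called lower and 0 higher in STAT3-KO, and 7 lower and 0 higher in WT, with medians of -0.37 and -0.93. The background of calls of a fall was 30.6% in STAT3-KO, near the share of these mRNAs, and 21.6% in WT. The 3 calls in STAT3-KO became 0 after rescaling by the median of ratios, without a filter or without the second STAT3-KO control library, 1 without the first STAT3-KO control library, 1 without the second STAT3-KO library with IL-33, and 5 without either WT library with IL-33, with the length trend removed or with only the groups compared. With IL-33, 7 of the 10 were called higher in STAT3-KO than in WT, where 16.3% of all tested genes were. The 7 were 4 without a filter or without the first STAT3-KO library with IL-33. mt-Co1, a catalytic subunit of cytochrome oxidase, had 5384 and 5539 FPKM in STAT3-KO cells with IL-33, 2525 and 1733 in WT cells with IL-33, 6990 and 7427 in STAT3-KO control cells and 6544 and 5690 in WT control cells. Only the WT libraries with IL-33 were clearly low, with a change of -1.54 ± 0.16 in WT (adjusted p = 0.000205) and -0.40 ± 0.16 in STAT3-KO (adjusted p = 0.0647), and the responses differed by 1.14 ± 0.23 (adjusted p = 0.0134), a call lost under 3 of 14 alternatives. All mitochondrially encoded genes together took 6.12% and 6.26% of FPKM in STAT3-KO cells with IL-33, 3.33% and 2.31% in WT cells with IL-33, 6.86% and 7.13% in STAT3-KO control cells and 6.18% and 5.55% in WT control cells.

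Of 9 nuclear regulators of mitochondrial genes tested, 2 were called higher and 4 lower with IL-33 in STAT3-KO, and 2 higher and 3 lower in WT. These are 22.2% and 44.4% in STAT3-KO, against 20.4% and 30.6% of all tested genes. In WT they are 22.2% and 33.3%, against 14.5% and 21.6%. The 4 were 1 without the second STAT3-KO control library, and 2 without any other STAT3-KO library, after rescaling or with the length trend removed. In WT the 3 were 1 with a filter of 5 FPKM, and the 2 were 1 without a filter, with the replicate block, with only the groups compared and without any 1 library but the second WT control library. Myc had 218 and 225 FPKM in STAT3-KO cells with IL-33, 143 and 157 in WT cells with IL-33, 89.6 and 83.2 in STAT3-KO control cells and 94.6 and 87.0 in WT control cells. It was called higher with IL-33 in both genotypes, by 1.35 ± 0.10 in STAT3-KO (adjusted p = 2.05e-05) and 0.71 ± 0.10 in WT (adjusted p = 0.00095), with a difference of responses of 0.63 ± 0.14 (adjusted p = 0.0197) whose call was lost under 4 of 14 alternatives. Max, the partner with which MYC binds DNA, had 22.8 and 24.4 FPKM in STAT3-KO cells with IL-33, 3.64 and 3.47 in WT cells with IL-33, 15.5 and 14.9 in STAT3-KO control cells and 14.9 and 12.5 in WT control cells. It was low in both WT libraries with IL-33, and the responses differed by 2.30 ± 0.20 (adjusted p = 0.000509). Nrf1, whose site core was counted above, had 3.78 and 4.21 FPKM in STAT3-KO cells with IL-33 and 6.66 and 6.20 FPKM in STAT3-KO control cells, a fall of 0.57 on the log2 scale (adjusted p = 0.0203) that was lost under 5 of 15 alternatives.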

How the data were processed

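The 8 libraries came from mouse lung ILC2s in culture. The deposited table holds FPKM values, obtained by the authors from Bowtie2 alignments and RSEM on GRCm38, per the submitters' processing notes. Versions, annotation release, filters and strand setting are not given in the sources used here, so overlapping and antisense genes cannot be told apart. Values times the merged exon lengths of GENCODE M21 came in steps, and in each library 93.4% to 94.6% of the values up to 100 reads were whole within a tolerance of 0.02, which gave the depths of 15843685 to 19905817 reads. RSEM by itself estimates counts, so the counting is not fully described by the notes. The floor of 3 reads covers counting error only. All 77 members matched GENCODE M21.

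Genes with at least 1 FPKM in at least 2 libraries, 11877 in all and 76 of the members, were tested on log2(FPKM + 1), with a pseudocount of 1, which understates the changes of low genes. With limma 3.58.1 (R 4.3.3), a model with 1 mean per group took in all 8 libraries (eBayes with trend, residual degrees of freedom 4, prior ones 4.46 at the median), two-sided, with Benjamini-Hochberg adjustment over all tested genes in each of 5 comparisons and a threshold of 0.05. The procedure was tested on simulated counts, drawn independently for each gene, and only for IL-33 against control in STAT3-KO. That test cannot show how the calls behave where many genes shift together within a library, as in STAT3-KO with IL-33. Errors of log2 differences are standard errors of the fit. Tables, motif counts and figures were made with matplotlib 3.10.9, pandas 2.3.3 and numpy 2.4.6 under Python 3.11.15. No column of another series was present.

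The members, lists and tests were chosen with earlier results of these data known, and the lists support nothing by themselves. Members named in every comparison were Mrpl10, Mrpl12, Mrpl45, Mrps12, Mrps36 and the Mrps18 paralogs. To these were added up to 10 rises and 10 falls among the members called whose groups did not overlap, and for the difference of responses all called, the 3 highest and 3 lowest by mean level, and up to 3 called genes from each list. Mrpl3 and Mrps17 and some list genes were described after their values were seen. Cytosolic ribosomal protein genes left out Rps6k kinase genes, Rps19bp1 and symbols ending in ps. Alternatives were another pseudocount (0.1), no filter, a filter of 5 FPKM, rescaling by the median of ratios, removal of a trend with gene length, only the groups compared, a replicate block and leaving out each library. Deviations of same-numbered libraries of different groups correlated by -0.062 to 0.045 over all tested genes. The labels do not say whether the numbers mark pairs, and such correlations cannot settle whether libraries shared a mouse or a batch.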

Additional observations from a re-analysis of the deposited data

Results flagged for a closer look

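The responses to IL-33 differed between STAT3-KO and WT by the test of the difference itself in 8 members, or 10.5% of those tested, all above 0. Among all tested genes 6.72% were called above 0 and 8.43% below. The log2 difference, STAT3-KO minus WT, was 1.42 for Mrpl45, 1.30 for Mrps6, 1.25 for Mrpl1 and 1.07 for Mrpl38. It was 1.02 for Mrps27, 0.73 for Mrpl44, 0.72 for Mrpl9 and 0.65 for Mrpl3. In Mrpl45, Mrps6 and Mrpl1 both genotypes rose, while Mrpl9 and Mrpl44 fell in WT and did not pass in STAT3-KO. Mrpl9 and Mrpl44 each lost the call under 11 of 14 alternative settings. Mrpl3 lost it under 10, Mrps27 under 9, Mrps6 under 4, Mrpl1 under 3 and Mrpl38 under 2, while Mrpl45 kept it under all 14. Each group had 2 libraries, too few for a check of single libraries that stand apart within a group.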

How the results depend on the processing

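Counts of called members depended on the processing mainly through single libraries and scaling. Rescaling by the median of ratios gave 42 higher and 0 lower with IL-33 in STAT3-KO and 14 higher in WT. In STAT3-KO these were 55.3% and 0%, against 26.4% and 23.2% of all tested genes after the same rescaling. In WT the 14 were 18.4%, against 19.4%. In STAT3-KO 1 member was called lower without a filter, with a filter of 5 FPKM, with the length trend removed, and with only the groups compared. In WT, only the groups compared gave 11 higher, and a filter of 5 FPKM gave 5 lower. The difference of responses was called above 0 for 3 members without a filter, and below 0 for 1 with the length trend removed. Leaving out 1 library gave 12 to 32 higher and 0 to 2 lower for IL-33 in STAT3-KO, 2 to 10 higher and 1 to 5 lower in WT, 7 to 26 higher and 0 to 1 lower for STAT3-KO against WT with IL-33, 0 either way in control, and 2 to 9 above 0 and 0 to 1 below 0 for the difference of responses. Whether the library numbers pair the samples is not known. With the replicate block 26 and 2, 8 and 3, 21 and 1, 0 and 0, and 6 and 0 members were called higher and lower in the same order. Of 1394 recomputed differences of named members 1267 stayed on the same side of the threshold, 112 lost the call and 15 gained one. None that was called changed direction (0), while a change of direction without a call on either side counts among the 1267. Of 44 called differences, 18 kept the call under every alternative that could be run for them. Of 1184 recomputed counts of the lists beside the members, 993 stayed within 1.5 times and 191 did not. The 993 include counts that were 0 and stayed 0, as all did for STAT3-KO against WT in control. With 2 libraries a group, the spread between libraries set the precision, and at 3 to 7 reads Mrps34 was too low to compare.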

Other observations

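Some members share exon sequence with a neighbour on the other strand that moved as well. Mif4gd, which overlaps Mrps7, had 94.0 and 85.4 FPKM in STAT3-KO cells with IL-33, 173 and 189 in WT cells with IL-33, 252 and 245 in STAT3-KO control cells and 264 and 242 in WT control cells. It fell by 1.46 on the log2 scale with IL-33 in STAT3-KO (limma adjusted p = 1.28e-05), where Mrps7 rose. Tcp1, a subunit of the cytosolic chaperonin that overlaps Mrpl18, had 133 and 131 FPKM in STAT3-KO cells with IL-33, 90.8 and 80.2 in WT cells with IL-33, 48.5 and 50.7 in STAT3-KO control cells and 48.6 and 43.2 in WT control cells. It was higher by 0.62 in STAT3-KO than in WT with IL-33 (adjusted p = 0.00332), where Mrpl18 was lower. The part of the overlap in the values of Mrps7 and Mrpl18 was not tested.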
